A study of Sus scrofa with 6 samples.

Results

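The interferon response genes measured here are MX1, MX2, ISG15, OAS1, IRF1, IFIT1 and RSAD2. They were taken as every probe set of the deposited table whose platform annotation gives 1 of these symbols and no other, which found 13 of 24123 probe sets and all 7 genes, of 6765 genes with such a probe set. The 13 were 1 probe set each for IRF1, MX1, OAS1 and ISG15, 2 for MX2, 3 for IFIT1 and 4 for RSAD2. Of these, 9 entered the tests. The 3 others of RSAD2 are control probe sets of the array, and 1 of MX2 lay below the limit on dim probe sets.

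Total RNA from the ovarian follicles of gilts before puberty (young female pigs) was hybridised to 6 Affymetrix porcine arrays, 2 for each of 3 stages that the titles call primordial, middle stage and last stage. Follicles had been sorted by shape and diameter, and the labels name no treatment or genetic change in any group. Beyond prepubertal, neither the animals' age nor the number of animals or follicles per sample is stated in those labels. The 2 arrays of a stage are labelled biological replicates, and nothing further says whether they came from separate animals, so each p-value measures the spread between these samples.

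Cells answer interferons, secreted proteins of antiviral defence, through receptors whose JAK kinases activate STAT proteins. Type I interferons act mainly through a complex that holds STAT2 and IRF9, and interferon gamma is a strong inducer of the transcription factor IRF1. The effectors block viruses at different steps: MX proteins are large GTPases that trap viral particles, OAS1 makes the messenger that switches on an RNA-degrading enzyme, ISG15 is a ubiquitin-like protein attached to other proteins, IFIT1 binds foreign RNA at its cap, and RSAD2 (viperin) makes a nucleotide that stops viral RNA synthesis. In the reproductive tract of pigs and ruminants, the same genes are widely used as readouts of the interferons that an early conceptus secretes. In the gene order of the RefSeq assembly Sscrofa11.1, MX2 and MX1 are next to each other, OAS1 lies beside OAS2, IFIT1 beside IFIT3 and IFIT2, and RSAD2 beside CMPK2.

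All arrays had been scaled to the same trimmed mean, and their median signals lay between 119.3 and 169.9. Arrays of a stage correlated at r = 0.964 to 0.972 over the 23999 probe sets that are no controls, and arrays of different stages at 0.862 to 0.935. The arrays labelled primordial had low oocyte signals: ZP3, a coat protein of the oocyte, read 67.4 and 75.5 there against 2427 and 2635 in the middle stage, while INHA, the inhibin subunit of granulosa cells, read 11118 and 16319. A text attached to all 6 samples calls them primordial, so the stage names below rest on the titles. In bulk samples such as these, fewer cells of a type and less RNA per cell cannot be told apart. The log2(signal + 16) scale was used for every difference below. On it, all 14399 probe sets tested had a median of 0.22 when the primordial-labelled stage was subtracted from the middle. The median was -0.07 when the middle was subtracted from the last, and 0.14 when the primordial-labelled was subtracted from the last. Centring each array on its median instead moved these medians to -0.20, 0.12 and -0.09, and moved the share of called probe sets that were higher from 62.7% to 36.6%, from 42.3% to 62.9% and from 59.7% to 39.0%.

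IRF1 and OAS1 were lowest in the middle stage, and MX2 was highest in the primordial-labelled stage. For these 3 genes limma's F-test called a difference between stages, as it did for 50.3% of all probe sets. For MX1, ISG15, IFIT1 and RSAD2 the 2 arrays of the last stage differed from each other by more than the stages did. The same held narrowly for OAS1, with a log2 gap of 2.54 against a largest stage difference of 2.46. The second replicate of the last stage held the highest signal of all 6 arrays for 8 of the 9 probe sets tested, against 12.1% of all probe sets; MX2 was the exception.

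**Figure D1:**
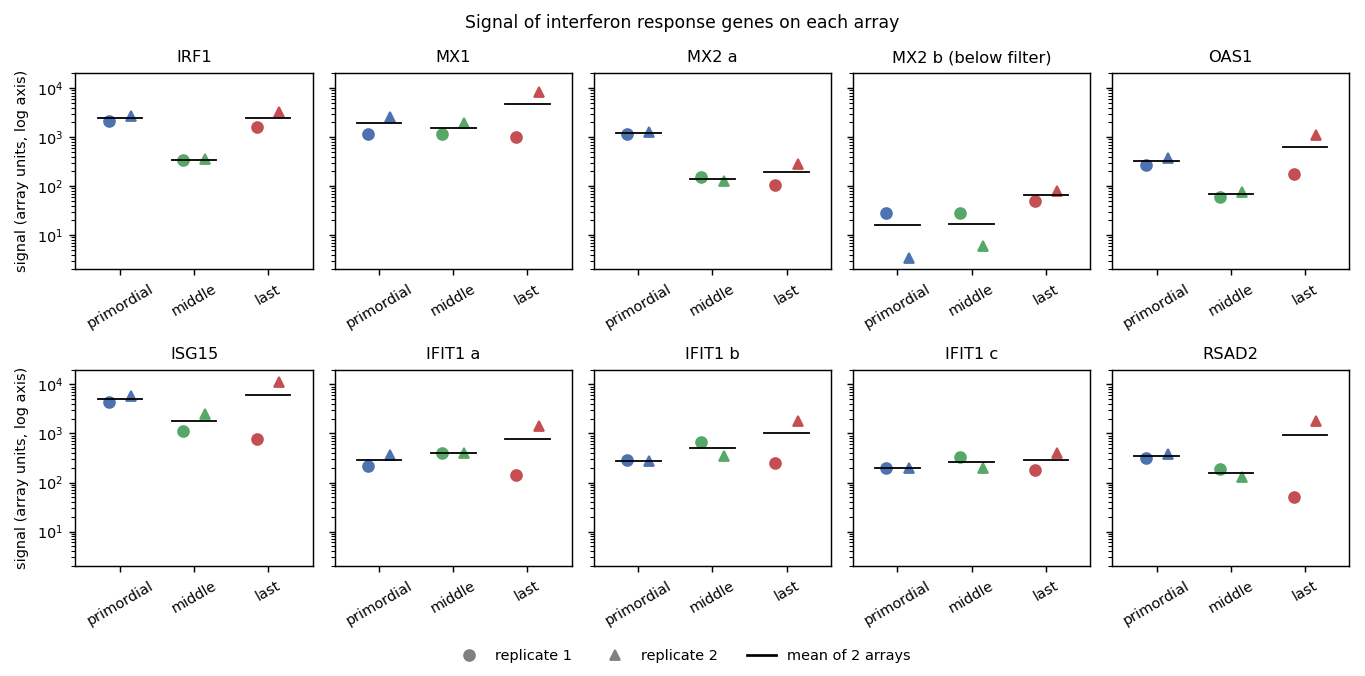
Signal of each probe set (log axis) in the 6 arrays by titled stage; circles are replicate 1, triangles replicate 2 and the black line the stage mean. IRF1 and OAS1 dip in the middle stage, MX2 a is high in the primordial-labelled arrays, and in the last stage the triangle lies far above the circle for RSAD2 (36.4-fold) and ISG15 (14.7-fold).

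IRF1 is a transcription factor that interferon gamma and NF-kappaB signals both induce, and that itself turns on antiviral and antigen-presentation genes. Its signal was 2127 and 2663 in the primordial-labelled arrays, 336.1 and 362.2 in the middle stage, and 1627 and 3236 in the last stage. Both middle arrays lay below all 4 others, and the values of the primordial-labelled and last stages overlapped. By limma with Benjamini-Hochberg adjustment over all 14399 probe sets, IRF1 was lower in the middle than in the primordial-labelled stage with a log2 difference of -2.71 ± 0.30 (SE, n = 2 arrays per stage; 6.57-fold; adjusted p = 0.000133). It was higher in the last than in the middle stage by 2.66 ± 0.30 (6.33-fold, adjusted p = 0.000489). The last and primordial-labelled stages differed by -0.05 ± 0.30 (adjusted p = 0.910), a difference whose sign turned to 0.04 under quantile normalization. Of the tested member probe sets, that of IRF1 had the smallest gap between the last-stage arrays, 1.99-fold. The rise of IRF1 from middle to last was 2.17 without the second last-stage replicate and 3.16 without the first.

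MX2 is a GTPase of the MX family that in several mammals restricts viruses at the nucleus. Its brighter probe set, MX2 a in the plots, read 1173 and 1273 in the primordial-labelled arrays, 155.9 and 128.1 in the middle stage, and 106.5 and 282.6 in the last stage. Both primordial-labelled arrays were brighter than every other array, and the brightest of those was the second replicate of the last stage. The difference was -2.98 ± 0.37 for middle minus primordial (7.87-fold, adjusted p = 0.000259) and, for last minus primordial, -2.69 ± 0.37 (6.47-fold, adjusted p = 0.000912), whereas the last and middle stages differed by 0.28 ± 0.37 (adjusted p = 0.646). The last-minus-primordial call held without either last array, at -3.34 (adjusted p = 0.000111) without the second and -2.05 (adjusted p = 0.00147) without the first. The other MX2 probe set was near the floor of the arrays, between 3.4 and 78.5, and was left out as dim. In the fit without a limit on dim probe sets it showed no called difference (0.08 ± 0.53 for middle minus primordial, adjusted p = 0.934, and 1.43 for last minus primordial, adjusted p = 0.103), so the MX2 pattern rests on 1 probe set.

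OAS1 makes oligoadenylates in the presence of double-stranded RNA. Its signal was 268.9 and 377.2 in the primordial-labelled arrays, 60.2 and 76.0 in the middle stage, and 174.9 and 1097 in the last stage. As with IRF1, the middle arrays were the lowest and did not overlap with either other stage. The difference was -2.0 ± 0.65 for middle minus primordial (4.0-fold, adjusted p = 0.0297) and, from middle to last, 2.46 ± 0.65 (5.51-fold, adjusted p = 0.0301). The last and primordial-labelled stages differed by 0.46 ± 0.65 (adjusted p = 0.615). Both OAS1 calls were lost with no limit on dim probe sets (adjusted p = 0.0597 and 0.0639) and with limma's moderation without an intensity trend (0.0521 and 0.0573). The rise from middle to last was 1.19 (adjusted p = 0.0635) without the second last-stage replicate and 3.73 (adjusted p = 0.000229) without the first.

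MX1, the cytoplasmic MX GTPase and neighbour of MX2, was measured at 1162 and 2620 in the primordial-labelled arrays, 1155 and 1912 in the middle stage, and 1012 and 8369 in the last stage. The last stage thus held both the lowest and the highest MX1 signal of the study, and every pair of stages overlapped. No stage difference was called. The middle differed from the primordial-labelled stage by -0.23 ± 0.79 (adjusted p = 0.830), and the last stage differed from the middle by 0.97 ± 0.79 (adjusted p = 0.433) and from the primordial-labelled by 0.74 ± 0.79 (adjusted p = 0.502). The order of the neighbours MX2 and MX1 over the arrays differed, with MX2 highest in the primordial-labelled stage and MX1 highest in 1 array of the last stage.

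ISG15, the ubiquitin-like modifier, read 4418 and 5725 in the primordial-labelled arrays, 1102 and 2457 in the middle stage, and 770.4 and 11296 in the last stage. Both middle arrays were below both primordial-labelled arrays, and the last stage spanned all of them. Middle minus primordial was -1.60 ± 0.95 (adjusted p = 0.192). The last stage differed from the middle by 0.84 ± 0.95 (adjusted p = 0.581) and from the primordial-labelled by -0.76 ± 0.95 (adjusted p = 0.570). The shared spread includes the last-stage pair; fitted on the 4 primordial-labelled and middle arrays alone, the same difference of -1.60 was called (adjusted p = 0.00329). In that fit 5 of the 9 probe sets were called lower, against 18.7% of all.

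RSAD2 followed the same course. It read 322.9 and 381.8 in the primordial-labelled arrays, 187.8 and 128.8 in the middle stage, and 50.0 and 1822 in the last stage, so that the lowest and the highest of the 6 arrays were again the last-stage pair. The difference was -1.10 ± 1.14 for middle minus primordial (adjusted p = 0.455) in the fit of all arrays, and was called in the fit of 4 arrays (adjusted p = 0.00829). The last stage differed from the middle by 1.02 ± 1.14 (adjusted p = 0.580) and from the primordial-labelled stage by -0.08 ± 1.14 (adjusted p = 0.966). The 3 control probe sets annotated to RSAD2 were dim. The one that the array marks as 3′ read 77.5 and 87.1, then 83.8 and 37.7, then 24.6 and 274.4 over the stages, with the last-stage pair again lowest and highest. The one marked 5′ stayed between 39.5 and 86.4 and the middle one between 5.9 and 57.7.

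IFIT1 was read by 3 probe sets. In the order of the arrays, primordial 1 and 2, middle 1 and 2 and last 1 and 2, IFIT1 a read 220.5, 360.5, 397.1, 392.5, 143.0 and 1433. IFIT1 b read 281.4, 280.1, 657.8, 354.7, 246.1 and 1768, and IFIT1 c read 200.3, 201.2, 330.7, 199.9, 176.6 and 407.5. All 3 placed the first replicate of the last stage lowest and the second highest, and no stage comparison of the 3 was called. For IFIT1 no dip in the middle stage was called: middle minus primordial was 0.46 ± 0.78, 0.75 ± 0.70 and 0.34 ± 0.38 (adjusted p = 0.654, 0.403 and 0.495), and the third of these turned to -0.08 when arrays were centred on their medians. By contrast IFIT3, another RNA-binding protein of the family, was lower in the middle stage by -2.97 ± 0.72 (adjusted p = 0.00838), and IFIT2 by -2.20 ± 0.61 (adjusted p = 0.0151). The difference between the genes was not tested.

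**Figure D2:**
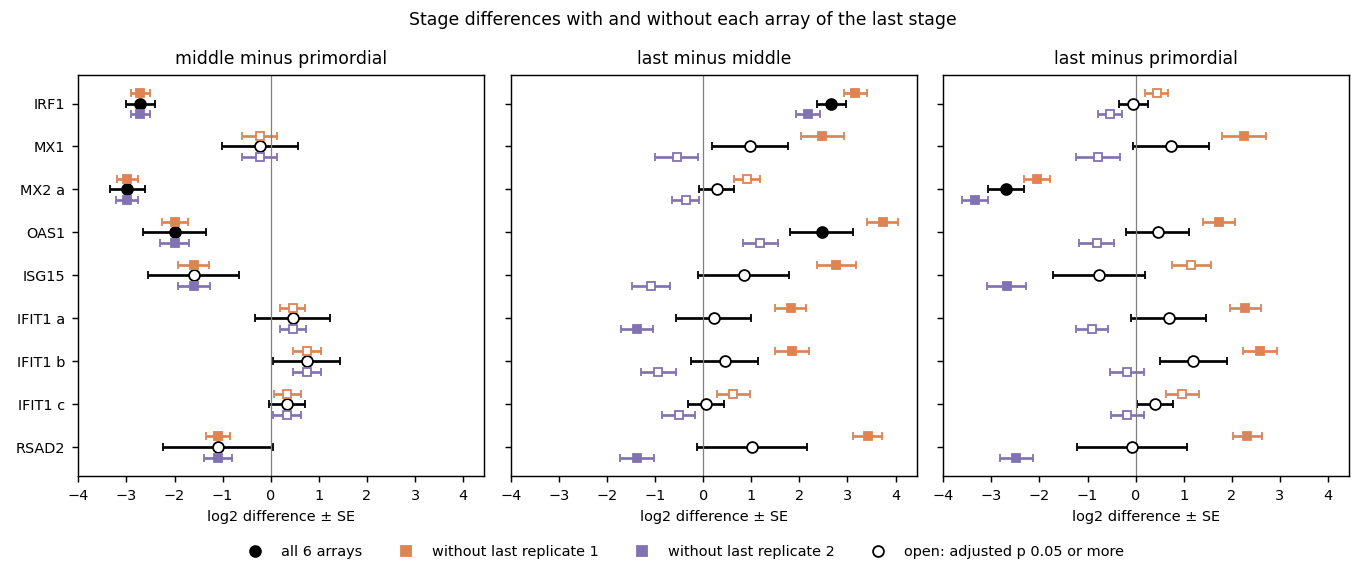
Log2 difference ± SE of each tested probe set in the 3 stage comparisons, with all 6 arrays (black) and without last replicate 1 (orange) or 2 (purple); open symbols did not pass an adjusted p of 0.05. IRF1 stays called in both directions of the dip, while ISG15 and RSAD2 move from above 0 to below 0 in last minus middle, depending on the last array left out.

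Over the 9 probe sets, limma called 3 lower than in the primordial-labelled stage and 0 higher when the middle stage was compared with it (IRF1, MX2 and OAS1; 3 had an unadjusted p under 0.05). Of all probe sets, 47.4% were called in this comparison, 17.7% lower and 29.7% higher. From middle to last, 2 were called higher and 0 lower (IRF1 and OAS1; 2 by unadjusted p), against 17.2% of all called, 7.29% higher and 9.94% lower. From primordial-labelled to last, 0 were called higher and 1 lower (MX2; 1 by unadjusted p), against 33.2% of all called, 19.8% higher and 13.4% lower. The median differences of the 9 were -1.10, 0.84 and 0.40 in these comparisons, beside 0.22, -0.07 and 0.14 for all probe sets. The arrays of the stages compared did not overlap for 7, 2 and 1 of the 9, where 76.7%, 60.2% and 69.0% of all probe sets did not overlap. The comparisons share arrays and are not independent of each other.

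The calls that involve the last stage depended on which of its arrays was used. Without the first last-stage replicate, 7 of 9 probe sets were called higher than in the middle stage (6.2% of all probe sets). Then 5 were called higher than in the primordial-labelled stage (13.5% of all) and 1, MX2, lower (9.59% of all). RSAD2 was then higher by 3.42 (adjusted p = 0.000240) and by 2.32 (adjusted p = 0.00147), and MX1 by 2.48 (adjusted p = 0.00785) and by 2.25 (adjusted p = 0.00873). Without the second replicate, 1 was called higher than in the middle stage (IRF1; 5.55% of all) and 2 lower (7.97% of all called lower), namely RSAD2 at -1.38 (adjusted p = 0.0325) and IFIT1 a at -1.37 (adjusted p = 0.0275). Then 3 were called lower than in the primordial-labelled stage (12.3% of all), namely MX2, ISG15 at -2.68 (adjusted p = 0.00190) and RSAD2 at -2.48 (adjusted p = 0.00143). In these fits the lone last array is assumed to vary like the arrays of the other stages. In either of them 5 of 9 were called lower in middle minus primordial, with ISG15 and RSAD2 added to the 3 above, where 18.6% of all probe sets were called lower.

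The gap within the last stage was itself measured, as the second replicate over the first, with 1 array on each side and therefore no test. RSAD2 was 36.4-fold higher, the largest gap of the members. ISG15 was 14.7-fold higher, MX1 8.27-fold and OAS1 6.27-fold. The 3 probe sets of IFIT1 were 10.0-fold, 7.18-fold and 2.31-fold higher, MX2 2.65-fold and IRF1 1.99-fold. On the log2(signal + 16) scale, 8 of 9 probe sets had a gap of 1 or more (IRF1, at 0.98, did not) and their median was 2.77, while 3.65% of all probe sets were higher by as much, 2.04% lower, and the median of all was 0.01. The same measure reached 1 for 1 of 9 between the primordial-labelled arrays (MX1, 1.16; 1.92% of all) and for 1 of 9 between the middle arrays (ISG15, 1.15; 1.38% of all).

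**Figure D3:**
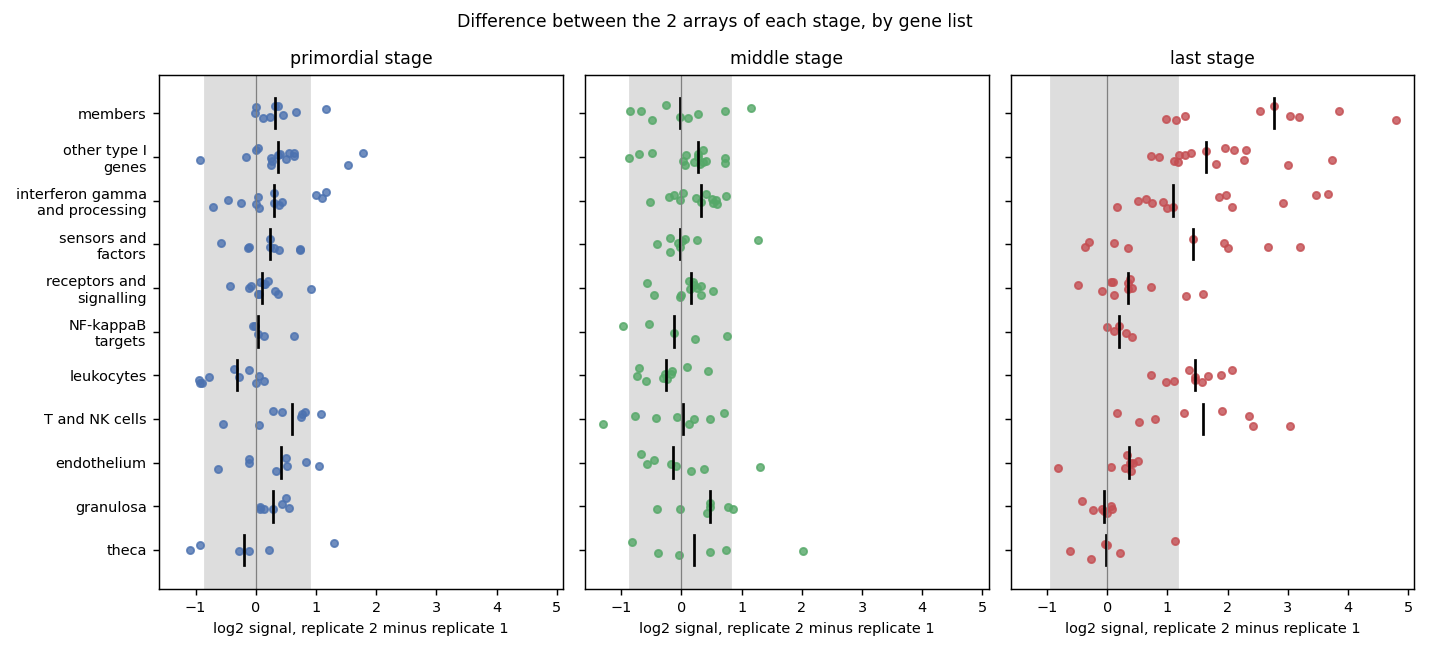
Log2 difference of replicate 2 minus replicate 1 within each stage, for the interferon response genes, the pathway lists and the cell marker lists; the grey band holds 95% of all 14399 probe sets and black bars are list medians. In the last stage 7 of the 9 member probe sets lie above the band, which ends at 1.17, with IRF1 and IFIT1 c inside it. The medians of granulosa and theca markers are near 0. The lists of ligands, stromal markers and oocyte markers are not drawn.

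The other genes of the pathway were read from 5 lists, with the brightest probe set for each gene; 51 genes were tested. Limma called 16 of them lower and 2 higher in the middle than in the primordial-labelled stage, 4 higher and 3 lower from middle to last, and 10 lower and 1 higher from primordial-labelled to last. Of all probe sets, 17.7% were lower and 29.7% higher, then 7.29% higher and 9.94% lower, then 13.4% lower and 19.8% higher. With 5 NF-kappaB targets, described apart below, the 56 genes had 21 lower and 2 higher, then 8 higher and 3 lower, then 15 lower and 1 higher. Without the first last-stage replicate, the median differences from middle to last were 0.43 for ligands, 0.24 for receptors and signalling and 0.75 for sensors and factors. They were 1.05 for the other type I genes, 1.31 for the interferon gamma list, 2.17 for NF-kappaB targets and -0.06 for all probe sets. Between the last-stage arrays, 27 of the 51 were higher by 1 or more in the second and 0 were lower by as much, with a median of 1.11. Of all probe sets, 3.65% were higher and 2.04% lower by as much.

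Of the ligands, 3 of 8 had a probe set and 2 were bright enough to test. IFNG, the interferon of T and NK cells, read 156.9 and 359.4 in the primordial-labelled arrays, 46.0 and 19.8 in the middle stage, and 44.0 and 64.3 in the last stage. It was lower by -2.43 ± 0.48 in the middle (adjusted p = 0.00289) and by -1.88 ± 0.48 in the last stage (adjusted p = 0.0160). IFNA1 stayed between 78.6 and 123.5 with no called difference. IFNB1 was dim and untested, at 41.1 and 69.0 in the primordial-labelled arrays and between 1.8 and 16.5 elsewhere. Neither tested ligand rose by 1 or more between the last-stage arrays.

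Among 12 tested receptors and signalling genes, 5 were lower in middle minus primordial and 5 in last minus primordial. The receptor chain IFNAR2 fell by 1.15 ± 0.23 from the primordial-labelled to the middle stage (adjusted p = 0.00291) and the kinase JAK1 by 1.09 ± 0.18 (adjusted p = 0.00100). JAK2, which serves the interferon gamma receptor, was lower in the last than in the middle stage (-1.28 ± 0.24, adjusted p = 0.00740). SOCS1, the feedback inhibitor of JAK kinases, had the dip of IRF1: -0.88 ± 0.27 in the middle (adjusted p = 0.0254) and 1.33 ± 0.27 from middle to last (adjusted p = 0.0106). Between the last-stage arrays, 2 of the 12 were higher by 1 or more in the second. Chosen after their values were seen, these were the partners STAT2 (347.7 and 1077) and IRF9 (324.1 and 826.0).

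Of 9 tested sensors and interferon regulatory factors, 5 were lower and 1 higher in middle minus primordial. IRF8, a factor of myeloid cells, had the course of MX2, at 2915 and 3600, then 244.9 and 181.6, then 162.9 and 463.6 over the stages; it was lower by -3.84 ± 0.40 in the middle (adjusted p = 9.96e-05) and by -3.47 ± 0.40 in the last stage (adjusted p = 0.000389). TLR4, the receptor for bacterial lipopolysaccharide, was lower by -2.42 ± 0.52 and -2.65 ± 0.52 in the same comparisons (adjusted p = 0.00429 and 0.00475). The nucleic acid sensor ZBP1 read 358.5 and 470.7, then 55.7 and 56.4, then 102.4 and 457.1, and was lower in the middle stage by -2.57 ± 0.53 (adjusted p = 0.00382). IRF2, which competes with IRF1 for its sites, was the 1 that was higher (0.88 ± 0.21, adjusted p = 0.00820). In the last stage, 5 of the 9 were higher by 1 or more in the second replicate.

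The list of other type I interferon-stimulated genes held 46 genes, of which 18 had a probe set and 15 were tested. Limma called 1 higher and 2 lower in middle minus primordial, or 4 higher and 3 lower when those 4 arrays were fitted alone. It called 1 lower in last minus primordial, which became 7 higher and 0 lower without the first last-stage replicate and 2 lower without the second. From middle to last it called 0, and 1 had an unadjusted p under 0.05. IFIT3 read 2921 and 2914, then 350.3 and 368.2, then 221.2 and 1898. PARP9, an ADP-ribosyltransferase family member, was the 1 higher in the middle stage (1.53 ± 0.54, adjusted p = 0.0417), while USP18, which removes ISG15 from proteins, was not called (0.96 ± 0.49, adjusted p = 0.139). In the last stage all 15 were higher in the second replicate, 13 of them by 1 or more, with a median of 1.64, and it was the highest of the 6 arrays for 12. Without the first last-stage replicate 9 of the 15 were called higher than in the middle stage and 0 lower. Without the second, 0 were called higher and 2 lower.

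Of 13 tested genes of the interferon gamma and antigen processing list, 3 were lower in middle minus primordial (5 when those 4 arrays were fitted alone) and 3 higher in last minus middle. The count in last minus middle was 7 higher without the first last-stage replicate, and 0 higher and 1 lower without the second. The immunoproteasome subunit PSMB8 had both changes (-1.75 ± 0.51, adjusted p = 0.0204, and 1.85 ± 0.51, adjusted p = 0.0372). The peptide transporter subunit TAP1 and its partner TAPBP were higher in the last than in the middle stage by 1.77 ± 0.53 and 1.35 ± 0.31 (adjusted p = 0.0483 and 0.0181). SOD2, the mitochondrial superoxide dismutase, was lower by -2.67 ± 0.28 in the middle (adjusted p = 0.000101) and by -2.81 ± 0.28 in the last stage (adjusted p = 0.000195). All 13 were higher in the second last-stage replicate, 7 of them by 1 or more, with a median of 1.10.

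NF-kappaB targets, which share IRF1 as an induced gene with the interferon pathway, are known for inflammation and stress. All 5 tested were lower in middle minus primordial and in last minus primordial, and 4 were higher in last minus middle (3 without either last-stage array). The inhibitor NFKBIA read 12377 and 11949, then 1938 and 1782, then 7596 and 8705, with the dip in the middle stage that IRF1 had. Unlike IRF1, for which no such difference was called, it was also lower in the last than in the primordial-labelled stage (-0.58 ± 0.15, adjusted p = 0.0167). ICAM1, an adhesion molecule, read 3625 and 3690, then 169.7 and 111.8, then 681.8 and 679.0. None of the 5 was higher by 1 or more in the second last-stage replicate, and their median gap was 0.20.

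**Figure D4:**
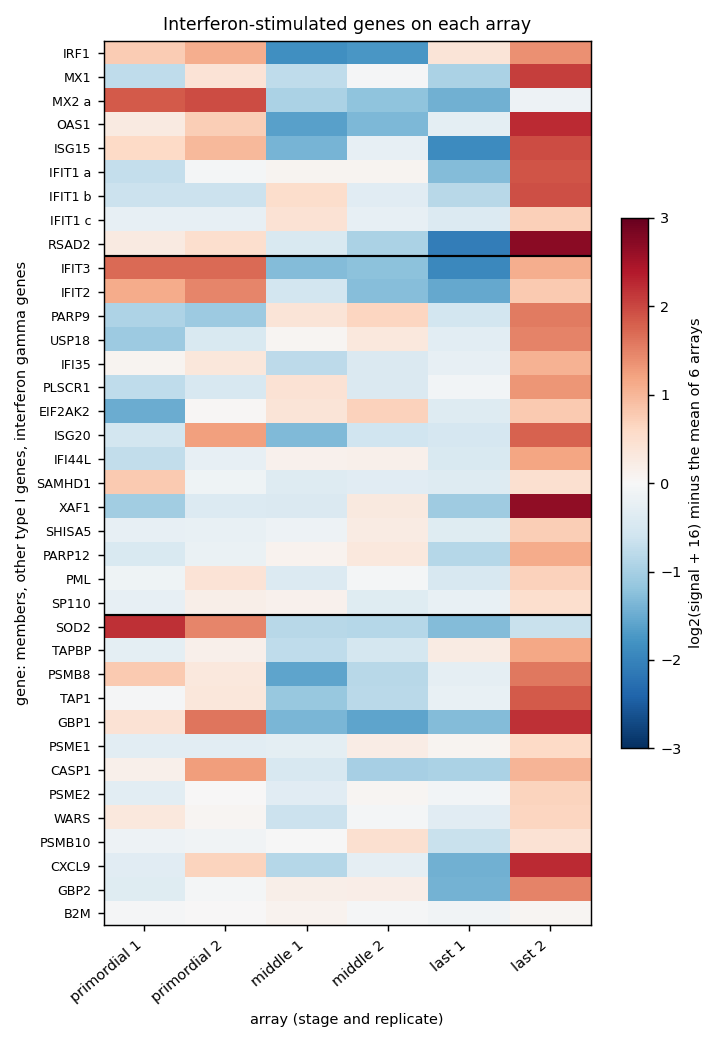
Log2(signal + 16) minus the mean of the 6 arrays, for the tested members, the other type I interferon-stimulated genes and the interferon gamma list, 1 column per array. The column of last replicate 2 is above the mean in most rows, with 12 of 15 type I genes and 9 of 13 interferon gamma genes highest there, and the column of last replicate 1 is mostly below it.

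Some markers of granulosa, theca, endothelial and immune cells moved with parts of these patterns. Of 7 tested granulosa markers, 4 were lower and 1 higher in middle minus primordial, and 4 were higher and 2 lower in last minus middle, as in the dip of IRF1 and OAS1. NR5A2, a nuclear receptor, differed by -4.56 ± 0.24 and 5.84 ± 0.24 (adjusted p = 4.22e-06 and 5.28e-06), INHA by -2.20 ± 0.26 and 2.26 ± 0.26 (adjusted p = 0.000182 and 0.000525), and AMH, a hormone of small growing follicles, the other way by 2.41 ± 0.31 and -3.40 ± 0.31 (adjusted p = 0.000289 and 0.000135). The summed signal of the 7 was 31741 and 41143 in the primordial-labelled arrays, 9026 and 13389 in the middle stage, and 53055 and 48912 in the last stage. In the same 2 comparisons, 6 theca markers had 3 higher and 1 lower, then 6 higher. The 8 endothelial markers had 1 higher and 1 lower, then 5 higher. The 1 lower in each list had the dip: CYP11A1 (-3.04 and 1.67) and PECAM1 (-1.97 and 1.77). Of 6 stromal markers 4 were higher, then 2 higher. The 5 oocyte markers were all higher, then all lower. The 10 tested leukocyte markers were all lower in middle minus primordial and 8 were lower in last minus primordial; CD53, a leukocyte tetraspanin, read 7747 and 8074, then 269.6 and 154.5, then 252.6 and 671.8. The summed signal of the leukocyte markers was 29237 and 23343 in the primordial-labelled arrays, 2710 and 2167 in the middle stage, and 2920 and 9306 in the last stage. In the last stage all 10 were higher in the second replicate, 8 by 1 or more with a median of 1.46, but that array was the highest of the 6 for 0 of them. Of 8 tested T and NK cell markers, 7 were lower in middle minus primordial and 5 were higher by 1 or more in the second last-stage replicate; their sums were 2311 and 3237, then 458 and 419, then 386 and 1265. GNLY, a granule protein of those cells, read 584.8 and 718.8, then 17.0 and 15.4, then 16.3 and 248.7. PTPRC, a pan-leukocyte marker, and CD14, ITGAM, CD3D, CD4 and PRF1 had a mean over the 6 arrays below the limit and were not tested. CD3D read 105.7 and 150.1 in the primordial-labelled arrays and 65.9 or less elsewhere, and CD14 and CD4 were also brightest in those arrays. ITGAM went the other way, with 28.1 and 3.7 in the primordial-labelled arrays and 55.7 or more in the middle stage. PTPRC was brightest in the first last-stage array (56.5) and lower in the second (41.1). The PRF1 values of the stages overlapped. MX2 and IFNG had the stage order of the tested immune markers. IRF1, MX1, OAS1, ISG15, IFIT1 and RSAD2 were brighter in the second last-stage array than in the primordial-labelled arrays. The part of any of these cell types in these results was not tested.

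Markers of granulosa, theca, oocyte and stromal cells had median gaps near 0 between the last-stage arrays, while 7 of 8 endothelial markers were higher in the second. Single genes reached a gap of 1 or more: the stromal markers COL3A1 (2.27) and LUM, a matrix proteoglycan (-1.55), and the theca marker LHCGR (1.13). The median was -0.05 for 7 granulosa markers, -0.03 for 6 theca markers, 0.04 for 5 oocyte markers, -0.09 for 6 stromal markers and 0.35 for 8 endothelial markers. The log2 difference between 3′ and 5′ control probe sets, a measure of RNA integrity, was 3.56 and 3.21 for actin in the primordial-labelled arrays, 4.98 and 4.21 in the middle stage, where IRF1 and OAS1 were lowest, and 3.90 and 3.57 in the last stage. For GAPDH it was 3.43 and 2.69, then 3.29 and 2.79, then 1.90 and 1.86. For EF1A it was 1.02 and 0.67, then 1.34 and 0.87, then 0.83 and 0.70. The part of RNA integrity in these results was not tested.

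The genes most like each member were named by Pearson's r over the 6 arrays of 3 stages. This is a description only, since both genes of a pair were read on the same arrays. MX2 was closest to IRF8 (r = 0.999, and 0.999 over 5 arrays without the second last-stage replicate). IRF1 was closest to PQLC3 (0.995), ADM (0.989) and DUSP6 (0.988), with r of 0.990 to 0.995 without that array. OAS1 was closest to IFI35 (0.988), TAP1 (0.984) and ENPP6 (0.981). MX1 was closest to DDX58 (0.981), the cytoplasmic RNA sensor RIG-I, to LOC100152327 (0.979) and to the interferon gamma-induced chemokine CXCL9 (0.970), with r of 0.951 or less without that array. For ISG15, IFIT1 and RSAD2 the closest were LMBR1L (0.974), SLC22A5 (0.971) and PON2 (0.982), and PON2 spanned only 2616 to 3409.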

How the data were processed

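RNA of 6 porcine follicle samples, 2 per titled stage, was measured on single-channel Affymetrix arrays. Per the submitters' processing notes the authors used GCOS (version and settings not given in the sources used here). Deposited values are a linear intensity per probe set, called signal here. Each array's mean without its lowest and highest values is 500.1. Intensities carry no counting depth, so the number of arrays limits the precision, and the share of probe sets at or below a signal of 16 was 12.8% to 18.0%.

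The 124 control probe sets and the 40% of the others with the lowest mean signal (under 91.3) were left out of the tests. Log2(signal + 16), with no further normalization, was modelled for the 6 arrays together by limma 3.58.1 (R 4.3.3), using lmFit and trended eBayes, with 3 residual and 6.33 prior degrees of freedom. Tests were two-sided, adjusted by Benjamini-Hochberg over 14399 probe sets at a threshold of 0.05. Folds are on the log2(signal + 16) scale and understate those of dim genes; folds between 2 arrays are ratios of signals. The fit was tested on simulated data. In these data a small set of probe sets was changed and all others had the same mean in every stage. For middle minus primordial the fit recovered 59% of log2 changes of 1.5 and 94% of changes of 3. In the measured arrays 47.4% of probe sets were called in that comparison, so these shares cannot be carried over to them. Same-numbered replicates did not deviate together (r = 0.059, 0.032 and -0.048), so no block was used. Python 3.11.15, pandas 2.3.3, numpy 2.4.6 and matplotlib 3.10.9 were used for tables and plots.

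Of 23999 probe sets that are no controls, 10069 have 1 gene symbol, 198 several and 13732 none; 9961 matched RefSeq by gene identifier. The members and gene lists were chosen with earlier results of these data known. Every member was named. From each list up to 4 genes with the smallest F-test p could be named, and for each member the 3 genes with the highest r. Outside this rule, STAT2, IRF9, CYP11A1, LHCGR, COL3A1 and genes ranked by the last-stage gap were named after their values were seen. The untested leukocyte and T and NK cell markers were named as well. Genes with several probe sets were read at the one with the highest mean signal. Alternatives were other pseudocounts, limits on dim probe sets, scalings, moderation, a replicate block, fits on 4 arrays and leaving out each array.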

Additional observations from a re-analysis of the deposited data

How the results depend on the processing

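Over the alternatives run, the counts of called members moved by over 1.5 times as follows, with the cause not tested except where arrays are fewer. From 3 in middle minus primordial, the count went to 5 when only those 4 arrays were fitted. From 2 in last minus middle, it went to 1 with no limit on dim probe sets and to 1 with eBayes without a trend. The 11 pathway genes, NF-kappaB targets included, called in last minus middle went to 7 with no limit, 6 without a trend and 7 in the fit of 4 arrays. Leaving out each array in turn gave 2 to 5 members in middle minus primordial, 1 to 7 in last minus middle, 1 to 6 in last minus primordial and 2 to 8 for any stage, the extremes in last minus middle being 7 without last replicate 1 and 1 without either middle replicate. Pathway genes ranged from 15 to 29, 3 to 25 and 11 to 27, and all probe sets from 4356 to 7189, 727 to 2172 and 2730 to 4297, where 6821, 2481 and 4786 were called with all arrays.

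The calls of IRF1 and MX2 kept their direction and passed in every alternative. OAS1 in middle minus primordial also missed the threshold without either primordial or either middle replicate, and in last minus middle without either middle replicate or last replicate 2. Differences that were not called with all arrays and changed sign were IRF1 last minus primordial (0.04 with quantile normalization, and -0.54 to 0.44 with an array left out), IFIT1 c middle minus primordial (0.00 with quantile normalization, -0.08 with median centring, and -0.01 to 0.68 with an array left out) and RSAD2 last minus primordial (0.16 with a pseudocount of 64). MX1 middle minus primordial ran from -0.81 to 0.35 with an array left out. Apart from RSAD2 last minus primordial without primordial replicate 2 (0.04) and IFIT1 c last minus middle without middle replicate 2 (-0.28), the other sign changes came with a last-stage array left out, the lower value without replicate 2 and the higher without replicate 1. For last minus middle these were -0.55 to 2.48 for MX1, -0.36 to 0.92 for MX2, -1.08 to 2.77 for ISG15, -1.38 to 3.42 for RSAD2, and -1.37 to 1.82, -0.93 to 1.84 and -0.51 to 0.63 for IFIT1. For last minus primordial they were -0.78 to 2.25 for MX1, -0.81 to 1.73 for OAS1, -2.68 to 1.16 for ISG15, -2.48 to 2.32 for RSAD2, and -0.91 to 2.28, -0.18 to 2.59 and -0.17 to 0.97 for IFIT1.

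With the replicate number as a block, the members called stayed at 3, 2, 1 and 3, and the pathway genes went from 23, 11 and 16 to 24, 10 and 20; the numbers did not pair the samples. The signal over background limits the dim MX2 probe set and the control probe sets of RSAD2, which lie near the floor.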

Other observations

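Ranked by the gap between the last-stage arrays, over tested probe sets with 1 symbol and chosen after the values were seen, 20 genes were taken in each direction. Of the 20 most raised in the second replicate, 4 were members, led by RSAD2 (4.80), and 7 were in the pathway lists, including XAF1 (82.5 and 1300), GBP1 (239.9 and 2820) and DDX58 (89.8 and 965.6). A further 1 was a T and NK cell marker, GNLY, and 8 were in no list. Those 8 included JCHAIN, the joining chain of antibodies made by plasma cells (3.10), and SLA-DRA, the alpha chain of an MHC class II molecule (2.71). Of the 20 most lowered, none was in a list; the gaps ran from -2.30 for VMO1 to -1.58 for RNASE10, and they included the mitotic and replication genes DLGAP5, BIRC5, CDC20 and MCM2 (-2.08, -1.67, -1.59 and -1.65). These are values of 1 array against 1, with no test.

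IFI44L was higher in the second last-stage array by 1.64 at its brightest probe set and by 3.93 at another.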
